A study of Saccharomyces cerevisiae with 4 samples.

Results

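The genes examined here encode enzymes of amino acid biosynthesis outside the sulfur pathway, and the measurement is how often Spo11 cut the DNA on their 5′ side in meiosis. The 58 genes were taken by name from 6002 nuclear protein-coding genes of budding yeast, and all 58 had an intergenic gap on their 5′ side, as did 5924 of the 6002. They fall into 10 groups by product: arginine, histidine, branched-chain amino acids, lysine, aromatic amino acids, threonine, serine, glutamate and glutamine, proline, and asparagine. They lie on 15 chromosomes, and no 2 of them share a gap.

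Spo11 with its attached oligos was immunoprecipitated, and the oligos were released, ligated to adaptors, amplified and sequenced by pyrosequencing. All cells were SK1 diploids (MATα/MATa) taken 4 h after transfer to sporulation medium at 30 °C, following 14 h of presporulation growth from a starting OD600 of 0.2. Both copies of Spo11 carried a tag (SPO11-HA3-His6::kanMX), and the nuclease gene NUC1 was deleted (nuc1∆::LEU2). The cells were also homozygous for his4X::LEU2 and leu2::hisG, for arg4-Nsp, for ho::LYS2 with lys2, and for ura3. None of the 58 genes is among the altered loci that the labels list. Of the 4 datasets, 3 (1A, 1B, 1C) are technical repeats from a single culture and the other (2) is from another culture. The deposited files pool them, so no comparison between cultures or with cells lacking tagged Spo11 was made here. The read list held 2024944 uniquely mapped oligos in 4 sequencing runs, named E8YXO9P, FE8RWPF, FFA0GWK and FIDXMPL in the read names, with 395612 to 587674 oligos each. Which dataset each run belongs to is not stated, and runs are therefore given as single values and not as replicates. Values per run below follow the order in which the runs are named here. Intervals are exact 95% Poisson intervals unless named otherwise (for a count of 0, the limit is 3 counts) and cover counting error only, since amplified reads carry no molecular identifiers. No replicate error and no p-value can be had from the pooled files. Hotspot positions are chromosome, start and end on the S288C genome as in the read list, whose build is not named.

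Spo11 is a topoisomerase-like protein that breaks both DNA strands to start meiotic recombination and leaves each end attached to a short oligo, whose 5′ end marks the cut. In budding yeast most breaks fall in the nucleosome-depleted stretches upstream of genes, often in clusters called hotspots. Genes of amino acid biosynthesis are activated together by Gcn4 when amino acids run short, with pathway factors such as Leu3 and Lys14 acting beside it, and ARG4, HIS4 and HIS2 are classical loci for the study of meiotic recombination.

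Breaks on the 5′ side of these genes had a higher median density than those of all genes, with a wide range from 0 to 3474. Density is the number of oligo 5′ ends per 1000000 mapped oligos (RPM) and per kb of gap, and every density below is in RPM per kb. The median over the 58 genes was 349 (order-statistic 95% interval 287.55 to 424), against 191 (182 to 200) over all 5924 genes with a gap, which include these 58. In the 4 runs the median over the 58 genes was 388, 369, 352 and 333, against 190.35, 187, 185 and 194 over all genes. Together the 58 gaps spanned 37.3 kb and held 44068 oligos, 2.18% of all mapped oligos, a pooled density of 583, against 303 over the 4355 distinct 5′ gaps of all genes. The 6 densest genes (BAT2, ILV3, ARG1, ARG7, ARO2 and ARO4) held 36.8% of these oligos.

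Of the 58 genes, 40 lay above the median of all genes, where 50% of all genes lie by construction, and 20 lay above the 75th percentile of all genes (461), where 25% lie by construction. A hotspot was a stretch where the smoothed oligo density reached 2.3 times its genome mean. A hotspot summit lay in the 5′ gap of 48 of the 58 (82.8%, 95% Wilson interval 71.1 to 90.4%), against 69.3% of all genes. No test of these shares was made, because the list was chosen with earlier results of the same data known. The gaps held 56 hotspots, and 7 of the 58 genes had more than 1, against 5.62% of all genes. These hotspots were a median of 270.5 bp wide with 442.5 oligos, against 211 bp and 241 oligos over all 3626 hotspots. The latter include hotspots outside 5′ gaps, so the sets are not alike.

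**Figure D1:**
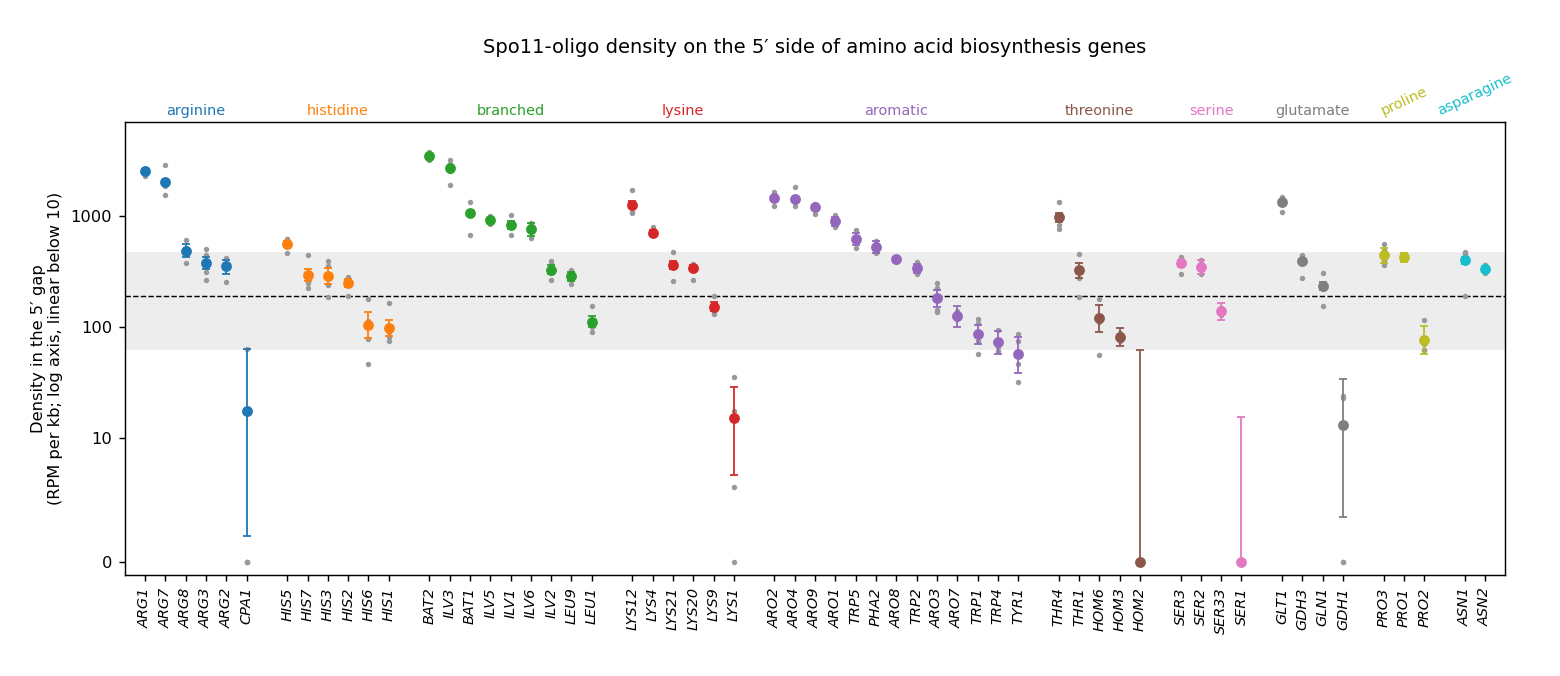
Density of Spo11 oligos in the 5′ gap of each of the 58 genes, grouped by pathway, in RPM per kb on an axis that is logarithmic above 10 and linear below. Coloured points are the pooled values with exact 95% Poisson intervals (at 0, up to the limit of 3 counts), grey points are the 4 sequencing runs, the dashed line is the median of all genes (191) and the grey band runs from their 25th percentile (63.5) to their 75th (461). BAT2 (3474), ILV3 (2678) and ARG1 (2510) stand highest, and HOM2 and SER1 are at 0.

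The median was higher beside neighbours of either orientation, but in tandem gaps its interval reached below the median of all such genes. A gap is divergent where both flanking genes start in it and tandem where the neighbour ends in it. The gaps had a median length of 479.5 bp, against 453 bp for all genes. Divergent gaps made up 23 of 58 (39.7%), against 52% of all genes. In divergent gaps the median density was 397 for the 23 genes, against 247 for all genes, and 20 of the 23 lay above the median of all genes, a level exceeded by 59% of all genes with divergent gaps. In tandem gaps the median was 285 (126 to 442) for the 35 genes, against 129 (119 to 142) for all genes. Of the 35, 20 lay above the median of all genes, a level exceeded by 40.3% of all genes with tandem gaps. A hotspot summit was present in 21 of 23 divergent gaps (77% for all genes) and in 27 of 35 tandem gaps (61% for all genes).

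**Figure D2:**
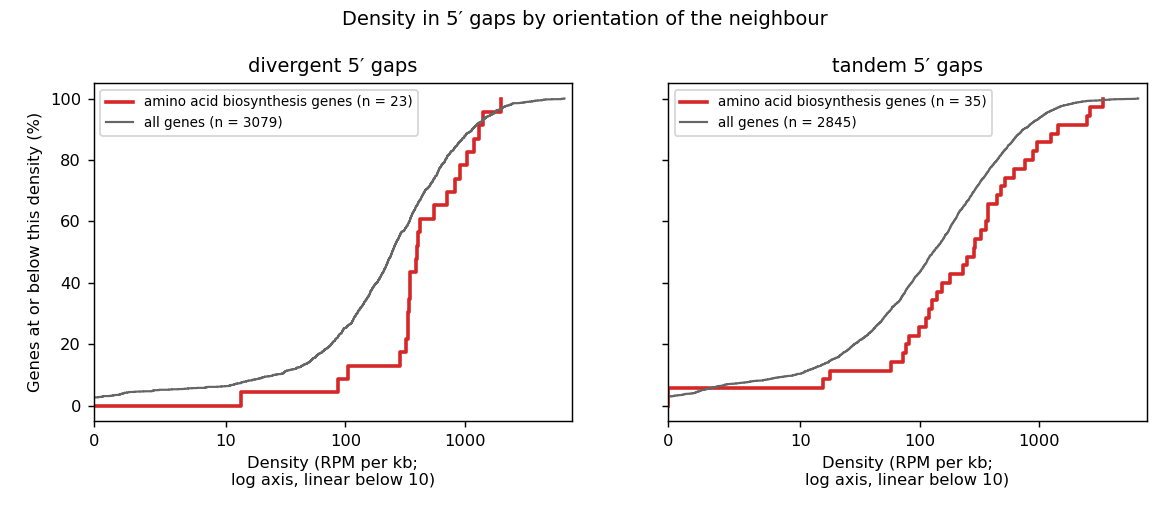
Cumulative share of genes (vertical axis, %) at or below a given density in the 5′ gap (horizontal axis, RPM per kb, logarithmic above 10), for divergent gaps on the left and tandem gaps on the right. The red line of the amino acid biosynthesis genes lies right of the grey line of all genes over most of both panels, with medians of 397 against 247 (divergent) and 285 against 129 (tandem).

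Genes of branched-chain amino acid synthesis had the densest 5′ gaps by median, and all 9 of them held a hotspot. With the oligos of a group pooled over its gap length, arginine genes came before them, with 1533 (1499 to 1569) for arginine and 907 (890 to 924) for branched-chain genes. The branched-chain genes had a median of 832 (666 to 947 in the runs), and 8 of 9 lay above the median of all genes and 6 above the 75th percentile. That median is the value of ILV1. With neighbours without a name skipped, ILV1 fell to 291, while the arginine gene CPA1 rose from 17.6 to 932. The medians of both groups therefore depend on where these gaps end. BAT2, the cytosolic branched-chain aminotransferase, had 3474 (3356 to 3594), from 3313 oligos in a gap of 471 bp. It gave 3161, 3765, 3352 and 3519.6 in the 4 runs. All 4 runs lay above the 75th percentile of all genes, and 99.2% of genes had a lower pooled density. The bin with most cuts lay about 450 bp upstream, and with the gene table moved by 100 bp to the right its density was 1835. ILV3, the dihydroxyacid dehydratase, had 2678, with 1879.6, 2939.7, 2529.9 and 3196 in the runs. Its hotspot (X, 466233 to 466549) held 1695 oligos and that of BAT2 (X, 705179 to 705600) held 3471. BAT1, the mitochondrial aminotransferase, had 1051 in a gap with 2 hotspots of 1246 and 920 oligos, and ILV5, the reductoisomerase, had 921. ILV1, the threonine deaminase that starts isoleucine synthesis, had 832 in a gap that ends at the unnamed reading frame YER085C, and 291 in the gap up to the next named gene, GET2. The acetolactate synthase genes differed, with 759 for the regulatory subunit ILV6 and 329 for the catalytic subunit ILV2. The short gap of ILV6 (147 bp) depends on the register, with 3.36 when the table was moved by 100 bp to the left. LEU9, which like LEU4 encodes an α-isopropylmalate synthase, had 285. LEU1, the isopropylmalate isomerase, was lowest at 112, in a gap of 1257 bp that it shares with the 3′ end of PMA1.

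Arginine genes ranged from some of the densest gaps to a nearly empty one. Their median was 431 (395 to 554 in the runs), and 5 of 6 lay above the median of all genes. ARG1, which makes argininosuccinate, had 2510 (2432 to 2590), with 2269, 2631, 2491 and 2584 in the runs, with E8YXO9P the lowest. Its hotspot (XV, 218654 to 219120) held 3841 oligos and ranked 37th of 3626. A single position and strand held 828 of the 3873 oligos in the gap (21.4%), and with each position and strand counted once its density, in distinct positions in place of oligos, was 878. ARG7, the mitochondrial ornithine acetyltransferase, had 2009, with 1875, 1841, 1543 and 2882 in the runs, so that FIDXMPL stood above the others. Its hotspot (XIII, 396446 to 397061) held 2831 oligos and lay in the gap shared with RIM9. ARG8, ARG3 and ARG2, which act in ornithine and citrulline synthesis, had 485, 377 and 351. CPA1, the small subunit of carbamoyl phosphate synthetase, had 17.6, from 2 oligos in 56 bp. That short gap ends at YOR302W, the leader reading frame of the CPA1 messenger, whose peptide restrains CPA1 translation. A hotspot of 1415 oligos (XV, 882002 to 882721) had its summit 358 bp from the CPA1 start, on the far side of that leader, and the gap up to the next named gene, RAX1, had 932.

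Aromatic genes, the largest group with 13, split between both sides of the all-gene median. Their median was 406 (388 to 429 in the runs), with 8 of 13 above the median of all genes and 6 above the 75th percentile. In the shared trunk to chorismate, ARO2 (chorismate synthase) had 1434, ARO4 1416 and the pentafunctional enzyme gene ARO1 897, whereas ARO3 had 181. ARO2 had 1577, 1378, 1224 and 1635 in the runs, and its hotspot (VII, 225692 to 226374; 683 bp, 2234 oligos) was wider than the gap, which ends after 521 bp at the unnamed reading frame YGL149W. ARO4 shares its gap with SPO23, and the hotspot there (II, 718141 to 718961) held 2969 oligos. The value of ARO1 varied with the register, with 116 and 1756 when the table was moved by 100 bp to the right and left, and ARO3 had 48.5 when it was moved to the right. The 7 genes of the branches to tryptophan, phenylalanine and tyrosine all lay below ARO1, but TRP5, PHA2 and TRP2 lay above ARO3. With the table moved to the right, TRP5, PHA2, TRP2 and ARO7 lay above ARO1, and TRP1, TRP4 and TYR1 below it. TRP5 (tryptophan synthase) had 622 and TRP2 (anthranilate synthase) 336, while TRP1 (phosphoribosylanthranilate isomerase) had 86.5 and TRP4 (anthranilate phosphoribosyltransferase) had 72.9 and no hotspot. PHA2, of phenylalanine synthesis, had 522, and TYR1, of tyrosine synthesis, 57.3 from 31 oligos, with no hotspot. ARO7, the chorismate mutase that feeds both, had 126. The aminotransferase genes ARO9 and ARO8, which act at the end of phenylalanine and tyrosine synthesis and in breakdown, had 1192 and 406.

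Lysine genes had a median of 350 (309 to 374 in the runs), and 4 of 6 lay above the median of all genes. LYS12, the homoisocitrate dehydrogenase, was highest with 1262, and its 4 runs gave 1069, 1092, 1212 and 1691. LYS4, the homoaconitase, had 708, and the homocitrate synthases LYS21 and LYS20 had 361 and 339. LYS9 and LYS1, the saccharopine dehydrogenases of the last steps, had 153 and 15.4. LYS1 gave 9 oligos in 289 bp (interval 7.03 to 29.2), with 0 in run FIDXMPL. No hotspot summit lay within 1000 bp upstream of it.

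Histidine genes ranged from 98.6 to 559.7. Their median was 268 (216 to 260 in the runs), and 4 of 6 lay above the median of all genes. HIS5, the histidinol-phosphate aminotransferase, had 559.7, but its median oligo lay 957 bp from the HIS5 start in a divergent gap of 1358 bp, nearer to PRM5. HIS7 and HIS3, which make and dehydrate imidazole glycerol phosphate, had 293 and 287.55. HIS6, an isomerase, had 105 and no hotspot, and HIS1, whose product starts the pathway, had 98.6. HIS2, the histidinol phosphatase, was the only one of the 58 genes with oligos in its gap and still more of them per kb in its own coding region, 321 against 249. Its 5′ gap has the noncoding gene YNCF0011C in it. The gap on its 3′ side, towards LSB3, had 2020.1.

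The remaining groups held fewer genes. Of the threonine genes, THR4 (threonine synthase) had 970.0, THR1 (homoserine kinase) 325, HOM6 (homoserine dehydrogenase) 121, HOM3 (aspartate kinase, the entry to the pathway) 81.9 and HOM2 (aspartate semialdehyde dehydrogenase) 0, with 2 of 5 above the median of all genes. THR4 had 112 when the table was moved by 100 bp to the right. The gap of HOM2, which ends at the unnamed reading frame YDR157W, is 24 bp long, so a count of 0 allows up to 61.7. A hotspot of 587 oligos (IV, 769962 to 770243) had its summit 247 bp upstream, outside that gap but before the next named gene, RPA14. Among serine genes, the dehydrogenases that open the pathway had 374 (SER3) and 139.5 (SER33), the phosphatase SER2 had 348 and the aminotransferase SER1 had 0, where 95 bp without an oligo allow up to 15.6. The nearest hotspot upstream of SER1, 272 bp from its start, held 63 oligos and lay outside the SER1 gap, which ends at FYV12. GLT1, the glutamate synthase, had 1320.3, with 1322, 1468, 1372 and 1075 in the runs, in a gap shared with UGA3, the activator of γ-aminobutyrate breakdown, and its hotspot (IV, 155870 to 156327) held 1752 oligos. GLN1, the glutamine synthetase, had 232. Of the proline genes, the reductase PRO3 of the last step and the kinase PRO1 of the opening step had 442 and 424, and PRO2, which acts between them, had 77.3 with no hotspot. The asparagine synthetase genes ASN1 and ASN2 had 397 and 335, with 2 and 3 hotspots in gaps of 1196 and 1740 bp. The 6 lowest genes were HOM2, SER1, GDH1, LYS1, CPA1 and TYR1, and the gaps of HOM2, SER1, GDH1 and CPA1 were 24 to 148 bp long.

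**Figure D3:**
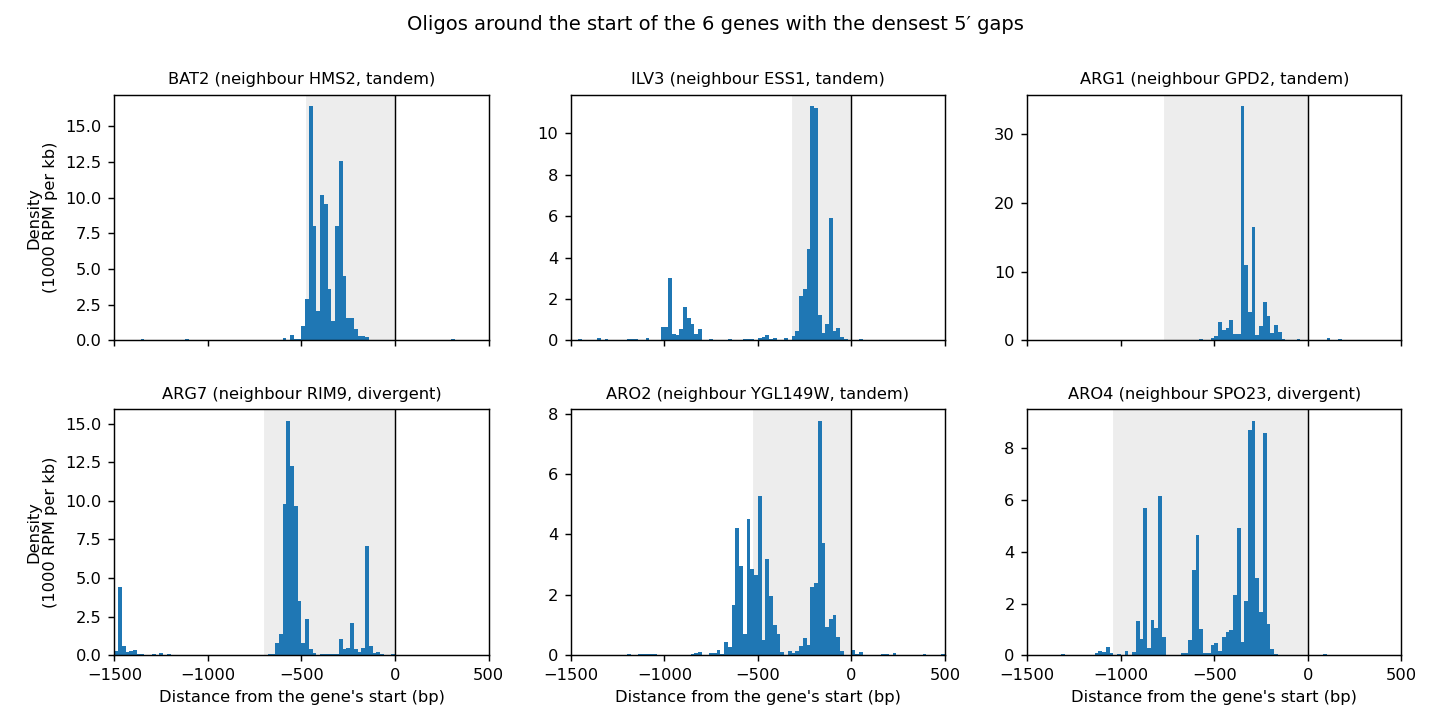
Oligo density (in units of 1000 RPM per kb, linear vertical axes that differ between panels) in bins of 20 bp by distance from the gene's start, for the 6 genes with the densest 5′ gaps; negative distances are upstream, grey marks the gap and the line at 0 the start. ARG1 has its highest bin (34001 RPM per kb) about 350 bp upstream, while ARO4 and ARO2 have several separate clusters.

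Within the gaps, cuts clustered at some distance upstream of the start. Among the 47 genes with at least 100 oligos in the gap, the median oligo lay a median of 266.5 bp from the start (quartiles 208.5 to 413), against 243 bp (155 to 402) in the 3832 such gaps of all genes. It lay 100 to 450 bp away in 38 of the 47, against 72.5% of all such gaps. The central 80% of oligos spanned a median of 193 bp, against 160 bp for all genes. The most used position and strand held a median of 10.2% of oligos, against 10.6% for all genes, and this share was highest at HIS7 (28.7%), ARO3 (23.6%) and ARG1 (21.4%) and lowest at BAT1 (3.28%). The share of oligos on the gene's own strand had a median of 49.2%, against 49.6% for all genes, with the lowest shares at ARO1 (27.2%) and LYS12 (27.3%) and the highest at HIS7 (64.0%). Mean oligo length was 30.5 nt in both sets by median. Distances rest on a gene table of assembly R64, while the build of the read list is not named, and around each of the 58 genes the best fit of table and map was a shift of −90 to 60 bp.

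In divergent gaps, density assigned to a gene can lie beside its neighbour. In 10 of the 21 divergent gaps with at least 100 oligos, the median oligo was nearer to the amino acid gene than to the neighbour, against 49.4% for all genes. At GDH3 the gap to FLO9 is 3598 bp long, and the median oligo lay 2871 bp from GDH3. At ARG7 the median oligo lay 542 bp from ARG7 in 697 bp, towards RIM9. At ARO9 and LYS4 it lay 369 of 608 bp and 448 of 771 bp away. In the 26 tandem gaps, where the neighbour contributes only its 3′ end, the median oligo was nearer to the amino acid gene in 11, against 42.1% for all genes.

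**Figure D4:**
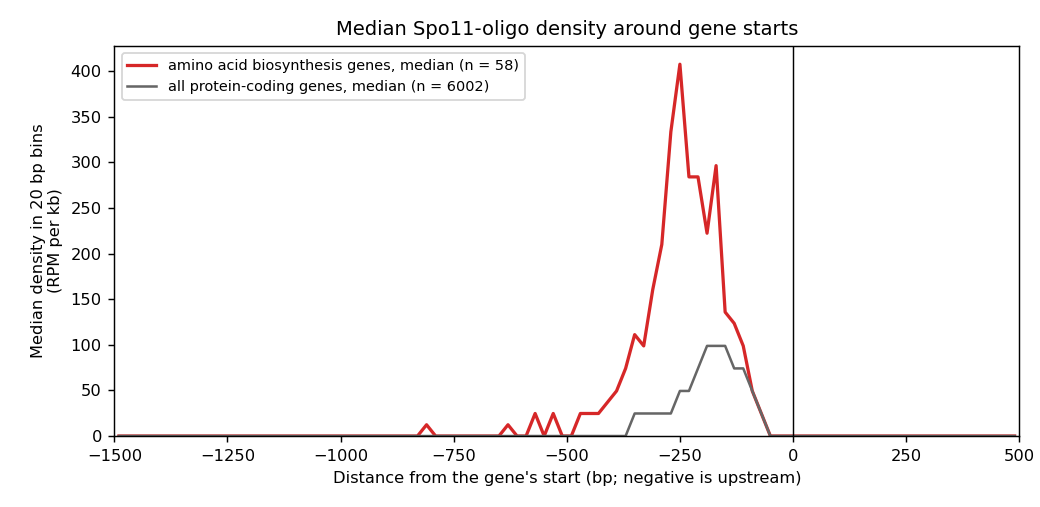
Median density of Spo11 oligos (RPM per kb, bins of 20 bp) by distance from the gene's start in bp, for the 58 amino acid biosynthesis genes in red and all 6002 protein-coding genes, which include them, in grey. The red median peaks at 407 about 250 bp upstream and the grey one at 98.8 about 190 bp upstream, and both are 0 inside the genes.

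By median, coding regions and convergent 3′ sides of the same genes were nearly free of oligos. The densest coding regions were those of HIS2 (321) and PRO3 (81.4), and the densest convergent 3′ gap was that of GLT1 (95.6). The coding regions had a median density of 5.12, against 5.04 for all genes. In 55 of the 58 genes the 5′ gap was denser than the gene's own coding region, against 91.5% of all genes. The exceptions were HIS2 and, with no oligo in their gaps, HOM2 and SER1. Where the 3′ side was a convergent gap, the median was 5.97 over 28 genes, against 6.24 for all genes, and where it was a tandem gap, 173 over 30 genes, against 131. One coding region, that of GDH3, held a hotspot summit (82 oligos, 107 bp past the start), against 6.66% of all genes.

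Isozymes, enzymes that catalyse the same step from different genes, had unequal 5′ gaps about as often as genes in general. For 5 of 7 such pairs the densities differed at least 2-fold, with the interval of the ratio (exact, from the conditional binomial) above 1 and the same direction in all 4 runs. Among all pairs of genes, 74.6% were at least 2-fold apart by density alone. In the 500 bp upstream of each gene only ARO4 over ARO3 and BAT2 over BAT1 kept such a difference, and the glutamate dehydrogenase pair had it in the opposite direction. ARO4 exceeded ARO3, the other DAHP synthase gene, 7.81-fold (6.54 to 9.41), with ARO4 at 1352, 1331, 1227 and 1802 in the runs and ARO3 at 248, 138, 143 and 225. BAT2 exceeded BAT1 3.30-fold (3.13 to 3.49), and 2.85- to 5.29-fold in the runs, but 1.81-fold with each position and strand counted once and 1.91-fold with the table moved by 100 bp to the right. ARO9 exceeded ARO8 2.94-fold (2.72 to 3.18), and 2.69- to 3.14-fold in the runs, but 1.79-fold in the 500 bp upstream. SER3 exceeded SER33, the other phosphoglycerate dehydrogenase gene, 2.68-fold (2.21 to 3.27), but 1.65-fold with each position and strand counted once and 1.90-fold in the 500 bp upstream.

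For the glutamate dehydrogenase pair the direction depends on where the gap ends. GDH3 had 389.5 and GDH1 13.3 from 4 oligos in 148 bp, a ratio of 29.2 (11.4 to 107). The gap of GDH1 ends at the unnamed reading frame YOR376W, and with such neighbours skipped the ratio was 2.46. A hotspot of 901 oligos (XV, 1043183 to 1043849) had its summit 311 bp upstream of GDH1. In the 500 bp upstream of each gene the order was reversed, with 93.8 for GDH3 and 556 for GDH1. The homocitrate synthase pair LYS21 and LYS20 did not differ beyond counting error (ratio 1.07, 0.954 to 1.19), and 2 of 4 runs had LYS21 higher. In the 500 bp upstream LYS21 had 463 and LYS20 759, a ratio of 0.611. ASN1 exceeded ASN2 1.18-fold (1.09 to 1.29), and FIDXMPL had the opposite order, with 192 for ASN1 and 360.3 for ASN2.

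**Figure D5:**
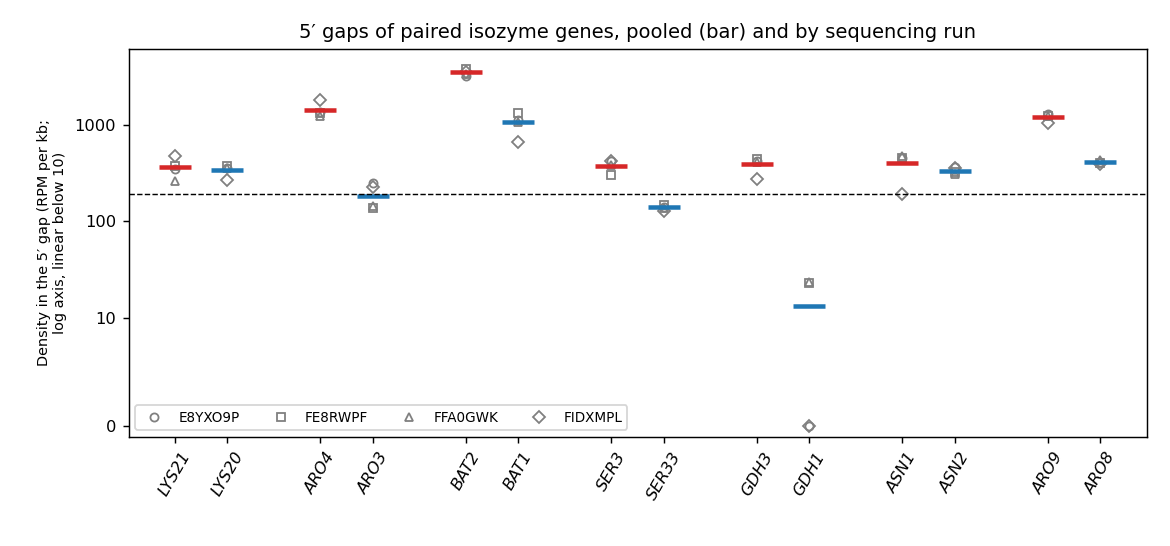
Density in the 5′ gap (RPM per kb, logarithmic above 10 and linear below) of both genes of 7 isozyme pairs, the higher one on the left; bars are pooled values, open symbols the 4 sequencing runs, and the dashed line the median of all genes (191). The runs of ARO4, BAT2, SER3 and ARO9 lie apart from those of ARO3, BAT1, SER33 and ARO8, while those of LYS21 and LYS20 overlap.

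Run FIDXMPL differed from the other runs at these genes about as often as at all genes. Its density differed by more than 1.5-fold from the mean of the other 3 runs in 10 of the 47 gaps with at least 100 oligos, against 22.8% of all such gaps. The same count was 4 of 47 for E8YXO9P (7.28% of all such gaps), 3 for FE8RWPF (5.17%) and 2 for FFA0GWK (7.78%). FIDXMPL was lowest at ASN1 (0.418 times the others), BAT1 (0.573) and GLN1 (0.607), and highest at HIS7 (1.82), ARG7 (1.64) and LEU1 (1.59). The culture behind this run is not stated.

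The 8 other genes of these pathways examined here, outside the 58, also had dense 5′ gaps. They were chosen with earlier results of these data known, so their counts cannot speak for further genes. All 8 (ARG4, ARG5,6, HIS4, LEU2, LEU4, LYS2, LYS5 and TRP3) lay above the median of all genes (50% of all genes). All 8 held a hotspot (69.3% of all genes), and their median was 712.5. LEU4 (3265) and ARG4 (1803) were highest and ARG5,6 (252) lowest. ARG4, HIS4, LEU2 and LYS2 are altered or inserted elsewhere in this strain, and what this adds to their values was not tested. Regulators of the pathways had a median of 101 over 11 genes, of which 4 lay above the median of all genes (50% of all genes) and 8 held a hotspot (69.3% of all genes). PHO2 (2013), ARG81 (1783) and GLN3 (1499) were highest. GCN4, the general activator, had 8.58 from 13 oligos in 748 bp and no hotspot. That gap ends at the unnamed reading frame YEL008W, and the gap of GLN3 ends at the unnamed reading frame YER039C-A.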

How the data were processed

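The read list and the map, both pooled over the 4 datasets, were used as deposited. Per the file headers, the list holds reads mapped uniquely to S288C, with a score per read that the authors deposited and that was not used here, and the map, called curated, gives raw counts of hits at each position without strand. Aligner, build and curation: not given in the sources used here. From each read name, the first 7 characters gave the run.

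The 5′ end of a read was its listed start on the top strand and its listed end on the bottom strand. Gaps ran to the nearest protein-coding neighbour on the 5′ side in a RefSeq gene table of assembly R64, with orientation from the locus tags. Its coordinates served for counting and are not printed. Chromosome XI, whose later part is out of register, stayed in the background, and 2 regulators there are not given. Hotspots were stretches where a Hann-weighted mean over 201 bp reached 2.3 times the mean over 12 Mb, merged within 200 bp, at least 25 bp wide, with at least 10 oligos per 1000000. A count of 0 allows 3. Genes named were all 58, their isozyme pairs and fixed lists of other pathway genes and regulators, of which 1 pathway gene is not reported here. Members and lists were chosen with earlier results of these data known. Counting and hotspot calls were tested on simulated data. The planned search of promoters for motifs needs sequence and was not run. Python 3.11.15, numpy 2.4.6, pandas 2.3.3, scipy 1.17.1 and matplotlib 3.10.9 were used.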

Additional observations from a re-analysis of the deposited data

How the results depend on the processing

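The counts of genes with a hotspot (41 to 52, against 48), above the 75th percentile of all genes (19 to 26, against 20) and above their median (37 to 43, against 40), and the median density (306 to 393, against 349), stayed within 1.5 times or within the interval of the median under every alternative run. These were the curated map, each position and strand counted once, the gene table moved by 100 bp either way, 500 bp upstream of each gene, each run left out, chromosome XI and 20 kb at chromosome ends left out, gaps under 100 bp left out and, for hotspots, a threshold of 4.6 times the mean or a minimum of 50 RPM. Over all genes the share with a hotspot ran from 55.8 to 79.6% and the median from 149 to 274 in these settings. The 52 genes with a hotspot, each position counted once, stand beside 79.6%, and the 41, table moved to the right, beside 61.9%. Leaving out chromosome ends kept 57 of the 58 genes, and leaving out short gaps 55. Skipping neighbours without a name, chosen after the data were seen, gave 51, 21, 42 and 356. With such neighbours skipped, 75.3% of all genes had a hotspot and the median of all genes was 199. Counts by pathway stayed within 1.5 times, except that 1 asparagine gene in place of 2 exceeded the median with each position counted once. In groups this small most changes of 1 gene stay within 1.5 times, so this limit is a weak check there. Nor can a count of 48 of 58 rise 1.5-fold. Isozyme pairs at least 2-fold apart in either direction numbered 3 of 7, against 5, under 3 settings. These pairs were ARO4 and ARO3, GDH3 and GDH1, and ARO9 and ARO8 with each position counted once. They were ARO4 and ARO3, SER3 and SER33, and ARO9 and ARO8 with the table moved to the right (added later for pairs). With 500 bp upstream they were ARO4 and ARO3, BAT2 and BAT1, and GDH3 and GDH1, the last reversed. GDH3 over GDH1 reversed to 0.169 with 500 bp upstream, and gave no value with the table moved to the left, where GDH1 had no oligo. Densities of single genes are less stable: 29 of 58 moved by more than 1.5 times with 500 bp upstream, 15 and 13 with the table moved to the right and left, 26 with each position counted once, where the unit differs, 4 with neighbours without a name skipped (CPA1, HOM2, GDH1 and ILV1), and 1 each without runs FE8RWPF (LYS1, to 7.22) and FFA0GWK (CPA1, to 0). The cause was not tested. No paired analysis was possible because the files pool the datasets. Gaps with few oligos limit the low values.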
